A study of Mus musculus with 4 samples.

Results

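The genes described here encode the constitutive subunits of the proteasome. They were taken as every gene whose symbol begins with Psma, Psmb, Psmc or Psmd followed by a number, leaving out the inducible subunits Psmb8, Psmb9 and Psmb10. The rule matched 37 of the 17550 genes that had at least 1 read in any library. Of these, 31 are subunits of the 26S proteasome. The other 6 are 3 chaperones of its assembly, 2 subunits known from testis and thymus, and Psmc3ip, a partner of meiotic recombinases that shares the letters of the name and is no subunit.

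The study sequenced total RNA from left ventricles of C57BL/6 mice aged 8 weeks, taken 3 days after an experimental myocardial infarction. The 4 groups were infarcted tissue labelled Neil3-/-, non-infarcted tissue labelled Neil3-/-, infarcted wild-type tissue and non-infarcted wild-type tissue. Each group has 1 library, with no word in the labels on the number of mice behind it, and every heart sampled had an infarct. Neil3 encodes a DNA glycosylase that removes oxidised bases, and which exons the Neil3-/- allele lacks is not given in the labels.

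The proteasome degrades proteins that carry a ubiquitin chain, in every cell type of the heart. Its 20S core is a barrel of alpha and beta rings in which the beta subunits Psmb5, Psmb6 and Psmb7 cut peptide bonds, and a 19S cap binds, unfolds and feeds in the substrate. In cells exposed to interferon, Psmb8, Psmb9 and Psmb10 can take the places of the catalytic subunits. Cardiomyocytes depend on the proteasome to turn over sarcomere proteins.

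The libraries held 18.2 M reads in infarcted and 14.3 M reads in non-infarcted tissue labelled Neil3-/-, and 17.3 M reads in infarcted and 14.9 M reads in non-infarcted wild type, where M is the metric prefix mega. Neil3 itself had more reads in the libraries labelled Neil3-/-, with 763 reads in infarcted and 391 reads in non-infarcted tissue, against 155 reads in infarcted and 62 reads in non-infarcted wild type. Since the exons that the allele lacks are not given, the genotype label could not be checked from these gene-level reads. The words "labelled Neil3-/-" stand for the label alone throughout. With 1 library per group there is no spread between replicates, no test was run, and the 95% intervals given in parentheses are exact Clopper-Pearson intervals that cover counting error only. All 8 cardiomyocyte markers were at least 1.5-fold lower in infarcted than in non-infarcted tissue of both genotypes. All 8 myeloid markers were at least 1.5-fold higher in both genotypes on the deposited scale, and with trimmed-mean (TMM) library sizes or median-of-ratios size factors 6 of 8 in the libraries labelled Neil3-/- and 8 of 8 in wild type. The cardiomyocyte markers summed to 9627 RPKM (reads scaled to the length of the gene model and to the library total) in infarcted and 25328 RPKM in non-infarcted tissue labelled Neil3-/-, and to 14328 RPKM in infarcted and 26966 RPKM in non-infarcted wild-type tissue. The myeloid markers summed to 1610 RPKM in infarcted and 654 RPKM in non-infarcted tissue labelled Neil3-/-, and to 1173 RPKM in infarcted and 394 RPKM in non-infarcted wild-type tissue. Of the 7 fibroblast markers 6 were higher in infarcted tissue labelled Neil3-/- (5 with TMM) and 4 in infarcted wild type, while Dcn was lower in both. They summed to 4196 RPKM in infarcted and 2533 RPKM in non-infarcted tissue labelled Neil3-/-, and to 2716 RPKM in infarcted and 1950 RPKM in non-infarcted wild type. Of the 5 endothelial markers 4 were higher in infarcted tissue of each genotype (3 in the libraries labelled Neil3-/- with TMM), and Kdr was lower. Of the 3 smooth muscle markers 2 were higher in each genotype and Myh11 was lower, and the 4 erythrocyte markers compared were higher in both. The atrial gene Sln had 0 reads in both infarcted libraries. In such bulk tissue, fewer cells of a type and less RNA per cell cannot be told apart.

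The subunits of the 26S proteasome were expressed at a similar level to one another. Their median stood at 80.6 RPKM in infarcted and 66.2 RPKM in non-infarcted tissue labelled Neil3-/-, and at 85.4 RPKM in infarcted and 67.9 RPKM in non-infarcted wild type. The gap between the lowest and the highest subunit was 2.97-fold in infarcted and 3.61-fold in non-infarcted tissue labelled Neil3-/-, and 3.00-fold in infarcted and 3.18-fold in non-infarcted wild type. All 31 subunits lay above the median gene of their library, which stood at 9.44 to 11.0 RPKM among genes at 1 RPKM or more, and the lowest subunit of a library lay above 81.6% to 85.5% of those genes. The lowest subunit was Psmd13 at 41.1 RPKM in infarcted tissue labelled Neil3-/-. In the other 3 libraries it was Psmd14, the metalloprotease of the cap that cuts ubiquitin chains off the substrate. The highest was Psmd8, a lid subunit, in both infarcted libraries and the trypsin-like protease Psmb7 in both non-infarcted libraries.

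Between libraries the order of the subunits was close, with a Spearman rho of 0.94 to 0.98 over the 31 genes for the 6 pairs of libraries, which share gene models and lengths. Each subunit was counted from 649 to 4749 reads per library, and reads covered 79.1% to 99.9% of each gene model. Core subunits averaged 89.5 RPKM in infarcted and 76.9 RPKM in non-infarcted tissue labelled Neil3-/-, and 93.2 RPKM in infarcted and 80.1 RPKM in non-infarcted wild type, over 14 genes. Cap subunits averaged less, with 69.5 RPKM in infarcted and 61.7 RPKM in non-infarcted tissue labelled Neil3-/-, and 74.8 RPKM in infarcted and 62.9 RPKM in non-infarcted wild type, over 17 genes. The 37 genes lie on 16 chromosomes.

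**Figure D1:**
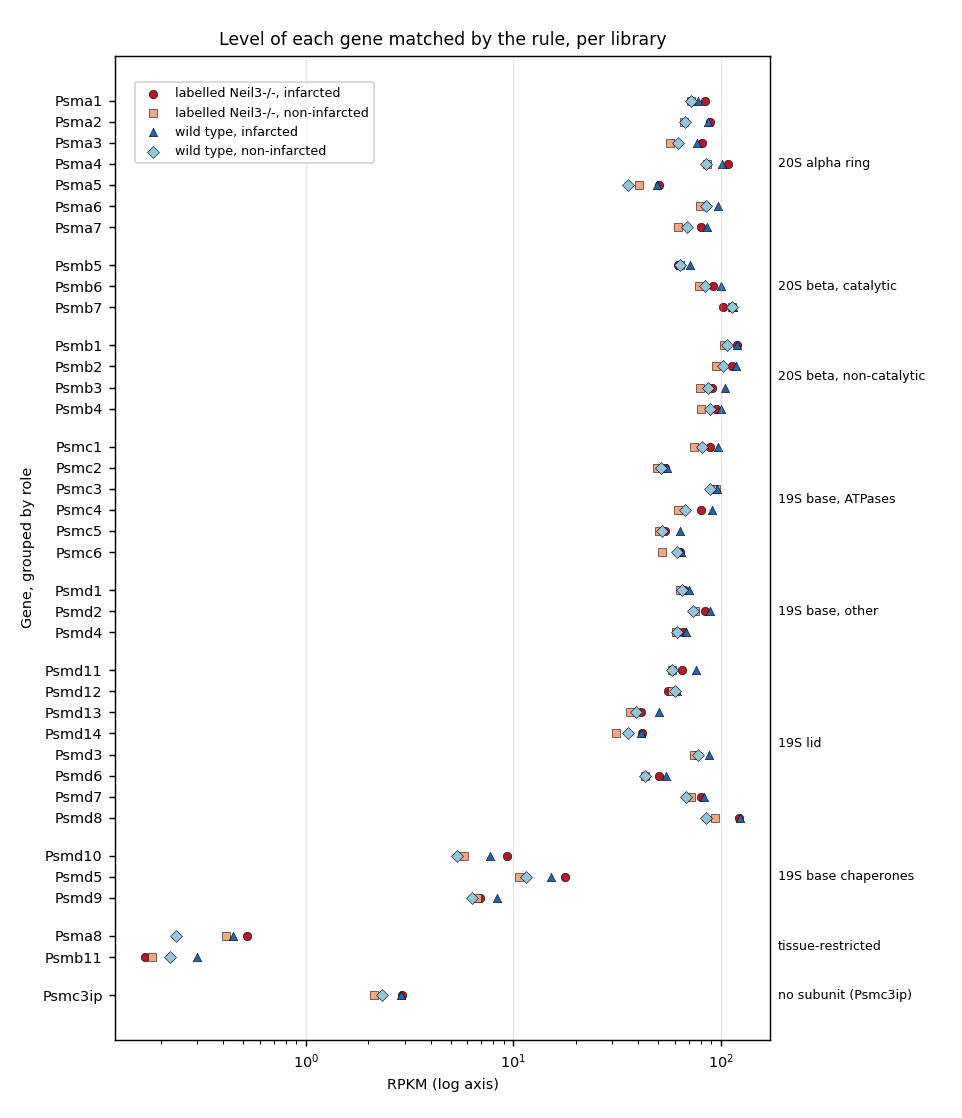
RPKM on a log axis for each of the 37 genes, grouped by role, with 1 marker per library. The 31 subunits of the 26S proteasome lie between 31.4 and 124 RPKM in all 4 libraries, the 3 assembly chaperones between 5.35 and 17.7 RPKM, Psmc3ip between 2.14 and 2.90 RPKM, and the testis and thymus subunits below 1 RPKM.

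The remaining genes of the rule lay well below the subunits. The base chaperones Psmd5, Psmd9 and Psmd10, which hold the ATPases during assembly and leave the finished cap, stood between 5.35 RPKM for Psmd10 in non-infarcted wild type and 17.7 RPKM for Psmd5 in infarcted tissue labelled Neil3-/-. Psma8, the alpha subunit of the testis proteasome, had 16 reads in infarcted and 10 reads in non-infarcted tissue labelled Neil3-/-, and 13 reads in infarcted and 6 reads in non-infarcted wild type. Psmb11, the catalytic subunit of the thymus proteasome, had 13 reads in infarcted and 11 reads in non-infarcted tissue labelled Neil3-/-, and 22 reads in infarcted and 14 reads in non-infarcted wild type. Neither reached 1 RPKM in any library, and both were left out of the fold comparisons, which hold the other 35 genes. Psmc3ip was at 2.90 RPKM in infarcted and 2.14 RPKM in non-infarcted tissue labelled Neil3-/-, and at 2.87 RPKM in infarcted and 2.34 RPKM in non-infarcted wild type.

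The sequences before the transcription start are shown for the genes on which the comparisons below turn. Psmb5 and Psmb6 are catalytic subunits whose upstream sequence holds the core of the antioxidant response element, Psmd8 is the subunit with the highest infarct ratio in wild type, and Psmd5 is the gene with the highest infarct ratio in the libraries labelled Neil3-/-. Each is the 250 bases before the start, 5′ to 3′ on the gene's strand, from RefSeq on build GRCm38.p6, with capitals on the letters TGACNNNGC of that core. The positions are chr14:54617996-54618245 (minus strand) for Psmb5, chr11:70525107-70525356 (plus strand) for Psmb6, chr7:29180674-29180923 (minus strand) for Psmd8 and chr2:34870963-34871212 (minus strand) for Psmd5.
Psmb5: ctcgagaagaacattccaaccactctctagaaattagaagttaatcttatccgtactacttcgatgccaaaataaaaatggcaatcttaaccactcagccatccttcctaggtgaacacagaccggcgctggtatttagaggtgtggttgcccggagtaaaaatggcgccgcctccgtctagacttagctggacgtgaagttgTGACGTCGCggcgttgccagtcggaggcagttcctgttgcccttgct
Psmb6: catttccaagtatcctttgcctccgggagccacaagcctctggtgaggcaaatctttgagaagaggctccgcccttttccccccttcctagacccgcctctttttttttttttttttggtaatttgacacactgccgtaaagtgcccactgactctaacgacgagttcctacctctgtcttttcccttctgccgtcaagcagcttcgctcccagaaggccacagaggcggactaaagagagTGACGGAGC
Psmd8: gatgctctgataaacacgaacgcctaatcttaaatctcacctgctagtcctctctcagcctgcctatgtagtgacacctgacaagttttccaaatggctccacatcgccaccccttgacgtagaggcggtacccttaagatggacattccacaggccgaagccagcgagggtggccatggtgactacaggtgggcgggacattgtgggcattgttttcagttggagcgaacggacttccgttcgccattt
Psmd5: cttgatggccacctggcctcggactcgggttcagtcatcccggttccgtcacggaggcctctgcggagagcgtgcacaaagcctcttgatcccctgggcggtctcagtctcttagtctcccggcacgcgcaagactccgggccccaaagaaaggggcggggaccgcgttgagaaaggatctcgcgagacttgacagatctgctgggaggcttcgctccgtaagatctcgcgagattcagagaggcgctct

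The core begins 47 bases before the start in Psmb5 and 9 bases before it in Psmb6, and neither strand of the Psmd8 and Psmd5 sequences holds it. Promoter sequences, scanned over the 250 bases before the start on both strands, were found for 30 of the 37 genes. Psmb7, the remaining catalytic subunit, was not among them, so its sequence was not scanned. The TGACNNNGC core, which factors of the Nfe2l1 and Nfe2l2 family bind, occurred in 5 of the 30 genes (16.7%), namely Psmb5, Psmb6, Psmd9, Psmc6 and Psmd12, against 14.2% of the genes at 1 RPKM or more. The CCAAT box occurred in 13 genes (43.3%, against 40.2%) and the heat shock pair GAANNTTC in 1 gene, Psmb5 (3.33%, against 6.07%). The shares were therefore close to those of expressed genes for the first pair of motifs, and a match is a description of letters, not of a bound site.

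The infarct ratio, infarcted over non-infarcted RPKM within a genotype, was small for nearly all of these genes. On the log2 scale the median over the 35 genes compared was 0.22 in the libraries labelled Neil3-/- and 0.27 in wild type. The median over all genes compared was 0.28 in the libraries labelled Neil3-/- and 0.25 in wild type, so the proteasome genes lay near the middle of the transcriptome in both. On the deposited scale 31 of the 35 genes were above 1 in the libraries labelled Neil3-/-, where 66.3% of all genes were, and 35 of 35 in wild type, where 67.2% were. That direction depended on the scaling: with TMM library sizes 15 of the 35 were above 1 in the libraries labelled Neil3-/- and 20 of 35 in wild type, and with median-of-ratios size factors 12 and 20. TMM moved the all-gene median to 0.04 in the libraries labelled Neil3-/- and 0.02 in wild type. Infarct ratios below are given as deposited, with their counting intervals. The median gene lay at 0.28 in the libraries labelled Neil3-/- and 0.25 in wild type, not at 0. A ratio or interval above 1 is therefore not by itself a rise against other genes. The all-gene median was exceeded by 11 of the 35 genes in the libraries labelled Neil3-/- and 20 of 35 in wild type.

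At a 1.5-fold difference, 2 of the 35 genes were higher in infarcted than in non-infarcted tissue labelled Neil3-/-, against 30.5% of all genes, and 0 were lower, against 14.4% of all genes. In wild type 0 of the 35 were higher, against 27.3% of all genes, and 0 lower, against 11.5%. When every gene counted whose higher value exceeded its lower one by 25% or more, 11 of the 35 were higher in infarcted tissue in the libraries labelled Neil3-/- (47.1% of all genes) and 10 in wild type (44.3% of all genes). None of the 35 was lower by that measure, against 20.8% of all genes in the libraries labelled Neil3-/- and 18.3% in wild type. The counting interval lay above 1 for 25 of the 35 genes in the libraries labelled Neil3-/- (53.6% of all genes) and for 30 in wild type (51.8% of all genes). It lay below 1 for Psmb7 in the libraries labelled Neil3-/- (24.1% of all genes) and for 0 genes in wild type (22% of all genes). Such intervals narrow as reads rise, and the subunits lie above the median gene of each library. The interval shares of all genes are not matched for reads. The genes past 1.5-fold were Psmd5 and Psmd10, both chaperones, and 0 of the 31 subunits of the 26S proteasome passed it. Between the quartiles of all genes, -0.20 to 0.69 in the libraries labelled Neil3-/- and -0.15 to 0.63 in wild type, lay 34 and 35 of the 35 genes. The 1.5-fold calls of all genes were 68.0% higher in the libraries labelled Neil3-/- on the deposited scale and 48.6% higher with TMM, and 70.4% and 49.5% in wild type.

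**Figure D2:**
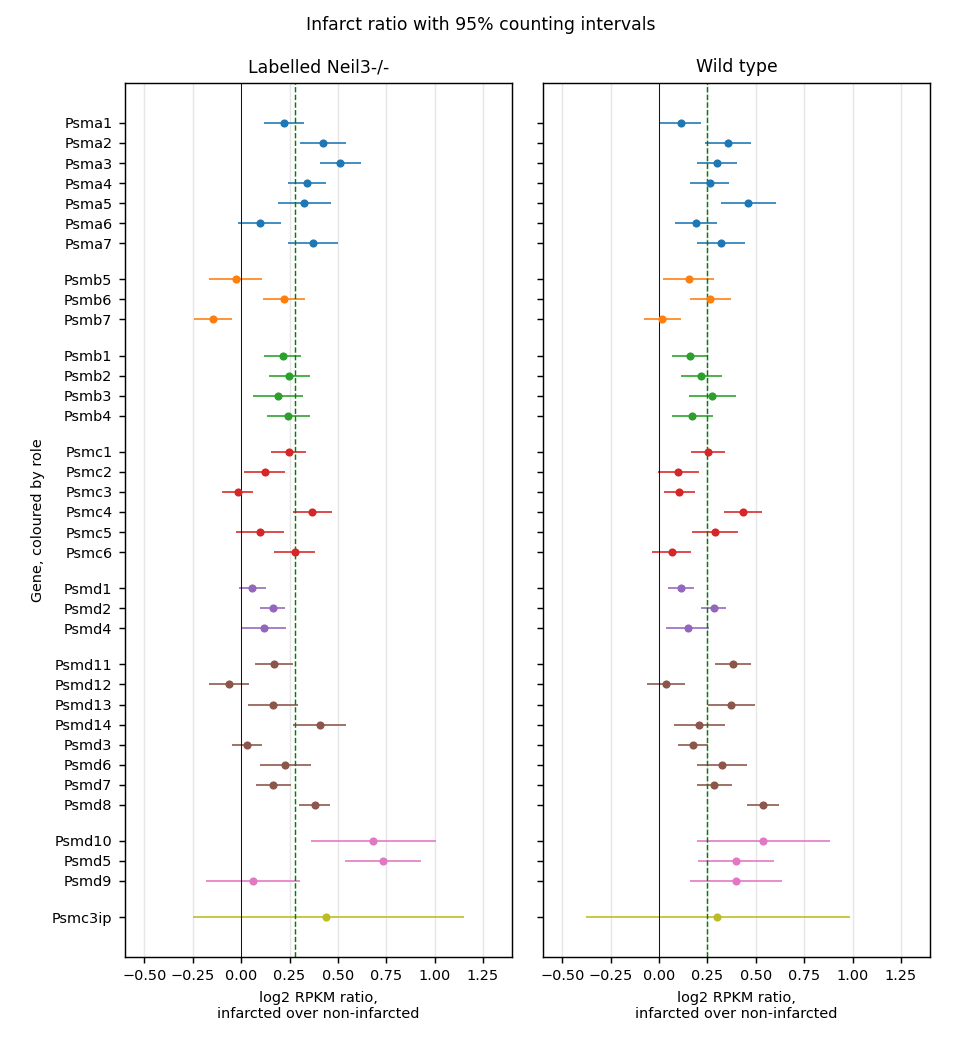
Log2 infarct ratio (infarcted over non-infarcted RPKM) of the 35 genes compared, in the libraries labelled Neil3-/- on the left and wild type on the right, with bars for the 95% counting interval, colours for roles and a dashed line for the median of all genes. Most points lie between 0 and 0.5, Psmb7 lies lowest in both panels (-0.15 labelled Neil3-/-, 0.02 wild type), and Psmd5 (0.73) and Psmd10 (0.68) lie highest on the left.

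The alpha ring, which gates the entry to the core, had the highest infarct ratios of the core. Its median log2 ratio was 0.34 in the libraries labelled Neil3-/- and 0.30 in wild type, and 5 of 7 members lay above the all-gene median in each. Psma3 stood at 81.5 RPKM in infarcted and 57.1 RPKM in non-infarcted tissue labelled Neil3-/-, and at 76.6 RPKM in infarcted and 62.2 RPKM in non-infarcted wild type. Both infarcted libraries were above both non-infarcted ones, by 1.43-fold (1.33 to 1.53) in the libraries labelled Neil3-/- and 1.23-fold (1.15 to 1.32) in wild type. Set against the all-gene median, its log2 ratio lay 0.24 higher in the libraries labelled Neil3-/- and 0.05 higher in wild type. Psma3 had the highest infarct ratio of the 31 subunits in the libraries labelled Neil3-/-. Psma5 stood at 50.3 RPKM in infarcted and 40.1 RPKM in non-infarcted tissue labelled Neil3-/-, and at 49.3 RPKM in infarcted and 35.8 RPKM in non-infarcted wild type, a ratio of 1.254 (1.14 to 1.38) in the libraries labelled Neil3-/- and 1.38 (1.248 to 1.52) in wild type. At the low end, Psma6 stood at 85.0 RPKM in infarcted and 79.5 RPKM in non-infarcted tissue labelled Neil3-/-, and at 97.04 RPKM in infarcted and 85.0 RPKM in non-infarcted wild type. Psma1 was near it, with 83.8 RPKM in infarcted and 71.9 RPKM in non-infarcted tissue labelled Neil3-/-, and 77.7 RPKM in infarcted and 71.9 RPKM in non-infarcted wild type. Psma1 and Psma6 were above 1 on the deposited scale and below 1 with TMM in both genotypes.

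The 3 catalytic beta subunits were the role with the lowest median infarct ratio in the libraries labelled Neil3-/-, at -0.03 on the log2 scale, and stood at 0.15 in wild type. Psmb7, the trypsin-like protease, stood at 102 RPKM in infarcted and 113 RPKM in non-infarcted tissue labelled Neil3-/-, and at 115 RPKM in infarcted and 113 RPKM in non-infarcted wild type. The library labelled Neil3-/- from infarcted tissue was thus the lowest of the 4, with an infarct ratio of 0.903 (0.843 to 0.967), while the wild-type ratio was 1.01 (0.947 to 1.08) on the deposited scale and below 1 with TMM and median-of-ratios scaling. Psmb5, the chymotrypsin-like protease, stood at 62.5 RPKM in infarcted and 63.8 RPKM in non-infarcted tissue labelled Neil3-/-, and at 71.0 RPKM in infarcted and 63.8 RPKM in non-infarcted wild type. Its ratio was 0.980 (0.892 to 1.08) in the libraries labelled Neil3-/- and 1.11 (1.01 to 1.22) in wild type, the second of which turned below 1 with TMM and median-of-ratios scaling. Psmb6, the caspase-like protease, stood at 91.4 RPKM in infarcted and 78.5 RPKM in non-infarcted tissue labelled Neil3-/-, and at 101 RPKM in infarcted and 83.7 RPKM in non-infarcted wild type. Its ratio was the highest of the 3 in both genotypes, at 1.16 (1.08 to 1.26) in the libraries labelled Neil3-/- and 1.20 (1.12 to 1.29) in wild type. The first of these was below 1 with TMM. Set against the all-gene median, the log2 ratio of Psmb6 lay at -0.06 in the libraries labelled Neil3-/- and 0.02 in wild type.

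The relation of alpha to catalytic subunits within a library does not depend on how libraries are scaled, and it was singled out after the values were seen. The summed RPKM of the 7 alpha subunits was 2.26 times that of the 3 catalytic subunits in infarcted and 1.81 times in non-infarcted tissue labelled Neil3-/-, and 2.01 times in infarcted and 1.82 times in non-infarcted wild type. Both infarcted libraries were above both non-infarcted libraries, which restates the order of the ratios above and is a description only. In all, 6 of the 37 genes have exons that overlap a protein-coding gene on the opposite strand in GENCODE. They are Psmb7 with Nek6, Psma4 with AY074887, Psmc3 with Slc39a13, Psmd1 with Htr2b, Psmd13 with Sirt3 and Psmc3ip with Mlx. Psmd1 also overlaps the protein-coding gene Gm21972 on the same strand, and Psmb5 holds the miRNA gene Mir686. Psma5, Psmd3 and Psmd9 overlap noncoding genes on the opposite strand, which makes 10 genes of the set with overlapping exons. GENCODE names 4 genes as pseudogenes of genes of the set. Whether the counting used strand is not given in the sources used here, so reads of such neighbours and copies cannot be told apart.

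The non-catalytic beta subunits, which complete the beta rings, differed little between the regions. Their median log2 infarct ratio was 0.23 in the libraries labelled Neil3-/- and 0.19 in wild type on the deposited scale, and just below 0 in both with TMM. Psmb2 stood at 113 RPKM in infarcted and 95.2 RPKM in non-infarcted tissue labelled Neil3-/-, and at 119 RPKM in infarcted and 102 RPKM in non-infarcted wild type. Psmb3 stood at 90.6 RPKM in infarcted and 79.4 RPKM in non-infarcted tissue labelled Neil3-/-, and at 105 RPKM in infarcted and 86.6 RPKM in non-infarcted wild type. These were the highest of the 4 in the libraries labelled Neil3-/- and in wild type in turn, at 1.19-fold (1.10 to 1.28) for Psmb2 and 1.21-fold (1.11 to 1.32) for Psmb3. Set against the all-gene median, those log2 ratios lay at -0.03 for Psmb2 and 0.03 for Psmb3. Psmb1 stood at 120 RPKM in both infarcted libraries, against 103 RPKM in non-infarcted tissue labelled Neil3-/- and 107 RPKM in non-infarcted wild type. Psmb4 stood at 95.01 RPKM in infarcted and 80.2 RPKM in non-infarcted tissue labelled Neil3-/-, and at 100.4 RPKM in infarcted and 89.1 RPKM in non-infarcted wild type.

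Among the 6 ATPases, which unfold the substrate, Psmc4 had the highest infarct ratio. It stood at 80.2 RPKM in infarcted and 62.2 RPKM in non-infarcted tissue labelled Neil3-/-, and at 90.7 RPKM in infarcted and 67.1 RPKM in non-infarcted wild type, a ratio of 1.29 (1.20 to 1.38) in the libraries labelled Neil3-/- and 1.35 (1.26 to 1.44) in wild type. Psmc3 stood at 93.6 RPKM in infarcted and 94.7 RPKM in non-infarcted tissue labelled Neil3-/-, and at 95.8 RPKM in infarcted and 89.1 RPKM in non-infarcted wild type. Psmc3 was the ATPase with the lowest infarct ratio in the libraries labelled Neil3-/-, at 0.988 (0.935 to 1.05), and its exons overlap those of Slc39a13 on the opposite strand. Psmc6, the lowest in wild type, stood at 63.4 RPKM in infarcted and 52.3 RPKM in non-infarcted tissue labelled Neil3-/-, and at 64.4 RPKM in infarcted and 61.6 RPKM in non-infarcted wild type. The median over the ATPases was 0.18 in both genotypes on the log2 scale and below 0 in both with TMM.

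The other base subunits are the large scaffold proteins Psmd1 and Psmd2 and the ubiquitin receptor Psmd4. Psmd1 had the lowest infarct ratio of the 3 in both genotypes and stood at 66.5 RPKM in infarcted and 63.9 RPKM in non-infarcted tissue labelled Neil3-/-, and at 70.3 RPKM in infarcted and 65.1 RPKM in non-infarcted wild type. Psmd2 had the highest and stood at 83.7 RPKM in infarcted and 74.7 RPKM in non-infarcted tissue labelled Neil3-/-, and at 89.0 RPKM in infarcted and 73.2 RPKM in non-infarcted wild type. Psmd4 stood at 65.7 RPKM in infarcted and 60.5 RPKM in non-infarcted tissue labelled Neil3-/-, and at 67.8 RPKM in infarcted and 61.2 RPKM in non-infarcted wild type. All 3 were above 1 on the deposited scale, and with TMM all 3 were below 1 in the libraries labelled Neil3-/- and 2 of 3 in wild type.

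The lid holds the deubiquitinase Psmd14 and 7 further subunits counted here. Its median log2 infarct ratio was 0.17 in the libraries labelled Neil3-/-, where 2 of 8 members lay above the all-gene median, and 0.31 in wild type, where 5 of 8 did. Psmd8 stood at 122 RPKM in infarcted and 93.9 RPKM in non-infarcted tissue labelled Neil3-/-, and at 124 RPKM in infarcted and 85.1 RPKM in non-infarcted wild type. Both infarcted libraries were above both non-infarcted ones, and the wild-type ratio of 1.45 (1.37 to 1.54) was the highest among the subunits of that genotype, beside 1.30 (1.23 to 1.38) in the libraries labelled Neil3-/-. Psmd14 stood at 41.5 RPKM in infarcted and 31.4 RPKM in non-infarcted tissue labelled Neil3-/-, and at 41.2 RPKM in infarcted and 35.7 RPKM in non-infarcted wild type. It had the highest infarct ratio of the lid in the libraries labelled Neil3-/-, at 1.32 (1.20 to 1.46), while its wild-type ratio of 1.16 (1.05 to 1.27) turned below 1 with TMM. Psmd12 was the lowest of the lid in both genotypes, at 55.6 RPKM in infarcted and 58.0 RPKM in non-infarcted tissue labelled Neil3-/-, and at 61.7 RPKM in infarcted and 60.2 RPKM in non-infarcted wild type. Psmd13 and Psmd11, the second of which clamps the cap to the core, had higher infarct ratios in wild type, at 1.29 (1.19 to 1.41) for Psmd13 and 1.30 (1.22 to 1.39) for Psmd11, than in the libraries labelled Neil3-/-, where both were 1.12 on the deposited scale and below 1 with TMM.

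Of the base chaperones, Psmd5 and Psmd10 had the highest infarct ratios of the set in the libraries labelled Neil3-/-. Psmd5 stood at 17.7 RPKM in infarcted and 10.6 RPKM in non-infarcted tissue labelled Neil3-/-, and at 15.3 RPKM in infarcted and 11.6 RPKM in non-infarcted wild type, a ratio of 1.66 (1.45 to 1.91) in the libraries labelled Neil3-/- and 1.32 (1.15 to 1.51) in wild type. Psmd10, also called gankyrin, stood at 9.32 RPKM in infarcted and 5.82 RPKM in non-infarcted tissue labelled Neil3-/-, and at 7.76 RPKM in infarcted and 5.35 RPKM in non-infarcted wild type, a ratio of 1.60 (1.28 to 2.01) in the libraries labelled Neil3-/- and 1.45 (1.15 to 1.84) in wild type. For both, infarcted tissue was above non-infarcted tissue in each genotype and under each scaling, but with TMM, median-of-ratios or centring on all genes neither passed 1.5-fold. Psmd9 stood at 6.93 RPKM in infarcted and 6.65 RPKM in non-infarcted tissue labelled Neil3-/-, and at 8.37 RPKM in infarcted and 6.35 RPKM in non-infarcted wild type. Its infarct ratio was 1.32 (1.12 to 1.55) in wild type and 1.04 (0.881 to 1.23) in the libraries labelled Neil3-/-, where it was below 1 with TMM. The part of the lower cardiomyocyte and higher myeloid markers in these ratios was not tested.

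As a whole the 31 subunits took 0.338% of reads (0.335% to 0.341%) in infarcted and 0.297% (0.295% to 0.300%) in non-infarcted tissue labelled Neil3-/-, and 0.358% (0.355% to 0.361%) in infarcted and 0.305% (0.302% to 0.307%) in non-infarcted wild type. The share was higher in both infarcted libraries, while the 8 cardiomyocyte markers took 2.16% of reads in infarcted and 6.45% in non-infarcted tissue labelled Neil3-/-, and 3.20% in infarcted and 6.92% in non-infarcted wild type. A share of reads moves when other genes take fewer reads, and that part was not tested.

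**Figure D3:**
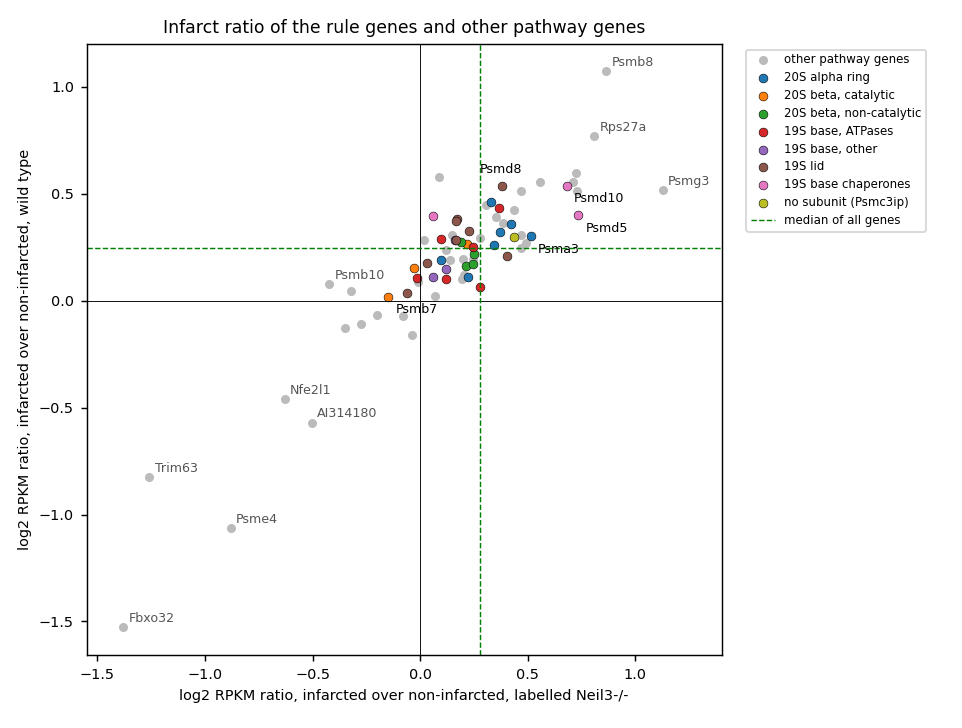
Log2 infarct ratio in the libraries labelled Neil3-/- (horizontal axis) against wild type (vertical axis), with 1 coloured point for each of the 35 genes of the set, grey points for other genes of the pathway and dashed lines for the medians of all genes. The set lies in a narrow cloud around the medians, while Psme4, Fbxo32 and Trim63 lie far below 0 on both axes and Psmb8 and Rps27a above the cloud.

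Several other genes of the pathway had infarct ratios outside the range of the subunits. Their counts past 1.5-fold stand against 30.5% of all genes higher and 14.4% lower in the libraries labelled Neil3-/-, and 27.3% higher and 11.5% lower in wild type, and with lists this short they say little about a list. Of the 5 activators and inhibitors of the core, Psme4, the nuclear activator of the core that acts without ubiquitin, was the 1 past 1.5-fold in each genotype and was lower in infarcted tissue, a count near the share of all genes. It stood at 44.7 RPKM in infarcted and 82.3 RPKM in non-infarcted tissue labelled Neil3-/-, and at 37.2 RPKM in infarcted and 77.7 RPKM in non-infarcted wild type. Psme3, another activator, was the highest of that list, with log2 ratios of 0.47 in the libraries labelled Neil3-/- and 0.51 in wild type. Of the 5 chaperones of core assembly, Psmg3 passed 1.5-fold in the libraries labelled Neil3-/-, with 9.10 RPKM in infarcted and 4.17 RPKM in non-infarcted tissue, against 9.39 RPKM in infarcted and 6.56 RPKM in non-infarcted wild type. Of the 5 other cap genes found, 0 passed in either genotype, and the lowest was AI314180, which RefSeq lists as Ecpas, an adaptor and scaffold of the proteasome. It stood at 27.1 RPKM in infarcted and 38.4 RPKM in non-infarcted tissue labelled Neil3-/-, and at 25.4 RPKM in infarcted and 37.7 RPKM in non-infarcted wild type, and it passed 1.5-fold in both genotypes with TMM.

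Of the 6 ubiquitin and activating enzyme genes, Rps27a and Uba6 passed 1.5-fold upward in both genotypes and 0 downward, near the share of all genes higher (30.5% in the libraries labelled Neil3-/- and 27.3% in wild type). Rps27a, which encodes ubiquitin fused to a ribosomal protein, stood at 278 RPKM in infarcted and 159 RPKM in non-infarcted tissue labelled Neil3-/-, and at 268 RPKM in infarcted and 157 RPKM in non-infarcted wild type. Uba6, a ubiquitin-activating enzyme, stood at 6.31 RPKM in infarcted and 3.83 RPKM in non-infarcted tissue labelled Neil3-/-, and at 5.37 RPKM in infarcted and 3.55 RPKM in non-infarcted wild type. With TMM and median-of-ratios scaling both stayed above 1 but no longer reached 1.5-fold in either genotype. Of 8 shuttle and p97 genes 0 passed in either direction, between -0.35 for Ubqln4 and 0.49 for Ubqln2 in the libraries labelled Neil3-/- and between -0.13 for Ubqln4 and 0.39 for Rad23b in wild type. Both ligases known from muscle atrophy were lower in infarcted tissue. Trim63 stood at 32.8 RPKM in infarcted and 78.5 RPKM in non-infarcted tissue labelled Neil3-/-, and at 42.8 RPKM in infarcted and 75.7 RPKM in non-infarcted wild type. Fbxo32 stood at 14.4 RPKM in infarcted and 37.3 RPKM in non-infarcted tissue labelled Neil3-/-, and at 11.6 RPKM in infarcted and 33.4 RPKM in non-infarcted wild type. The third ligase of the list, Stub1, was close to 0 in both, at -0.08 in the libraries labelled Neil3-/- and -0.07 in wild type on the log2 scale.

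The transcription factor Nfe2l1, which drives proteasome genes when proteasome activity is short, was lower in infarcted tissue under each scaling, while the subunits lay near the all-gene median. It stood at 81.9 RPKM in infarcted and 127 RPKM in non-infarcted tissue labelled Neil3-/-, and at 91.8 RPKM in infarcted and 126 RPKM in non-infarcted wild type, log2 ratios of -0.63 in the libraries labelled Neil3-/- and -0.46 in wild type. Ddi2, the protease that releases Nfe2l1 from the endoplasmic reticulum, stood at 10.5 RPKM in infarcted and 6.41 RPKM in non-infarcted tissue labelled Neil3-/-, and at 8.20 RPKM in infarcted and 5.58 RPKM in non-infarcted wild type. In the libraries labelled Neil3-/- these were the 2 of 4 regulators past 1.5-fold, in opposite directions, and 0 of 4 passed in wild type, against 30.5% of all genes higher and 14.4% lower in the libraries labelled Neil3-/- and 27.3% and 11.5% in wild type. With TMM the Ddi2 ratio no longer reached 1.5-fold, while Nfe2l1 passed in both genotypes. Ddi2 was the highest and Nfe2l1 the lowest of that list in both genotypes.

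The inducible counterparts of the catalytic subunits stood below them in all 4 libraries. Within a library, Psmb8 was at 0.390 times Psmb5 (0.350 to 0.433) in infarcted and 0.210 times (0.181 to 0.243) in non-infarcted tissue labelled Neil3-/-, and at 0.362 times (0.326 to 0.402) in infarcted and 0.192 times (0.165 to 0.223) in non-infarcted wild type. Psmb10 was at 0.210 times Psmb7 (0.190 to 0.232) in infarcted and 0.254 times (0.230 to 0.281) in non-infarcted tissue labelled Neil3-/-. In wild type Psmb10 was at 0.221 times Psmb7 (0.201 to 0.243) in infarcted and 0.212 times (0.191 to 0.235) in non-infarcted tissue. Psmb9 was at 0.102 times Psmb6 (0.0852 to 0.122) in infarcted and 0.0719 times (0.0551 to 0.0923) in non-infarcted tissue labelled Neil3-/-, and at 0.0721 times (0.0584 to 0.0882) in infarcted and 0.0607 times (0.0461 to 0.0785) in non-infarcted wild type. In RPKM, Psmb8 stood at 24.3 in infarcted and 13.4 in non-infarcted tissue labelled Neil3-/-, and at 25.7 in infarcted and 12.2 in non-infarcted wild type. Psmb9 stood at 9.34 RPKM in infarcted and 5.64 RPKM in non-infarcted tissue labelled Neil3-/-, and at 7.26 RPKM in infarcted and 5.08 RPKM in non-infarcted wild type. Psmb8 thus passed 1.5-fold in both genotypes, and Psmb9 in the libraries labelled Neil3-/- at 1.65-fold (1.22 to 2.26) on the deposited scale and not with TMM. Psmb10 went the other way in the libraries labelled Neil3-/-, with an infarct ratio of 0.746 (0.658 to 0.845), and was below 1 under each scaling. In wild type the Psmb10 ratio was 1.05 (0.930 to 1.20) on the deposited scale and below 1 with TMM and median-of-ratios scaling.

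The genotype ratio, the library labelled Neil3-/- over wild type in the same region, was close to 1 for the whole set. Its median on the log2 scale over the 35 genes was -0.08 in infarcted tissue, where all genes had a median of 0.03, and -0.05 in non-infarcted tissue, where all genes had 0.02. At 1.5-fold 0 of the 35 genes were higher in infarcted tissue (3.22% of all genes) and 0 lower (2.94% of all genes). In non-infarcted tissue 0 were higher (2.67% of all genes) and 0 lower (1.46% of all genes). Small differences leaned 1 way: 26 of 35 were below 1 in infarcted tissue, where 45.5% of all genes were, and 27 of 35 in non-infarcted tissue, where 46.3% were, and with TMM 28 of 35 were below 1 in each region. Of the 31 subunits, 22 lay below the all-gene median in both regions, where 29.7% of all genes compared in both did. The counting interval lay below 1 for 15 of the 35 genes in infarcted tissue (19.4% of all genes) and for 6 in non-infarcted tissue (10.8% of all genes). It lay above 1 for 3 genes in each region (25.4% of all genes in infarcted and 15.2% in non-infarcted tissue). These shares of all genes are not matched for reads, and the intervals narrow as reads rise.

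**Figure D4:**
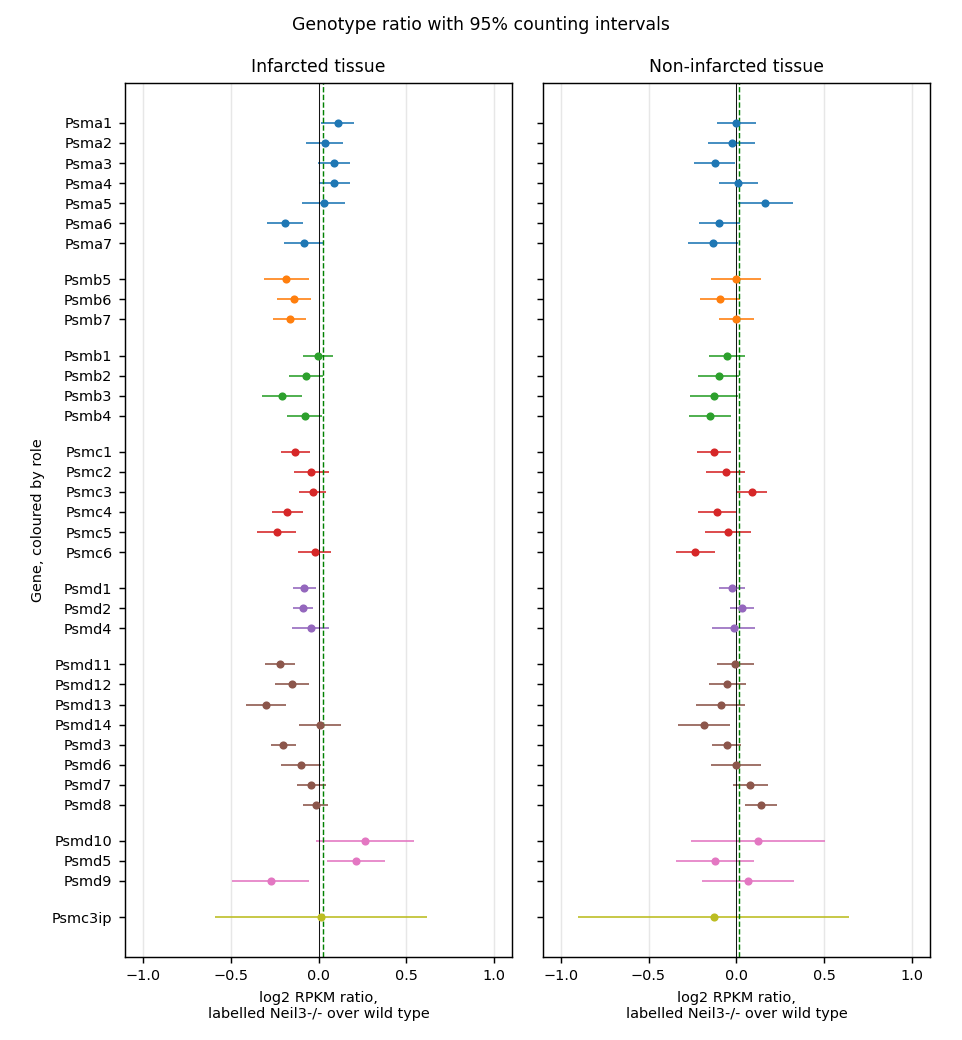
Log2 genotype ratio (library labelled Neil3-/- over wild type, in RPKM) of the 35 genes compared, in infarcted tissue on the left and non-infarcted tissue on the right, with bars for the 95% counting interval, colours for roles and a dashed line for the median of all genes. In infarcted tissue most points outside the alpha ring lie left of the dashed line, down to Psmd13 at -0.30.

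In infarcted tissue the alpha ring had a median log2 genotype ratio of 0.034 on the deposited scale, close to the 0.026 of all genes. The medians of the other subunit roles were below 0. Of the 7 alpha subunits 5 were above 1 on the deposited scale and with TMM (3 with median-of-ratios), with Psma1 the highest at 1.08 (1.01 to 1.15) and Psma6 the lowest at 0.876 (0.817 to 0.939). Of the 24 other subunits, Psmd14 was the only 1 above 1, at 1.01 (0.927 to 1.09), and it was below 1 with TMM. All 3 catalytic subunits were lower in the library labelled Neil3-/- than in wild type under each scaling, at 0.881 (0.807 to 0.961) for Psmb5, 0.908 (0.849 to 0.970) for Psmb6 and 0.892 (0.836 to 0.952) for Psmb7. The largest difference among subunits was that of the lid member Psmd13, with 41.1 RPKM in infarcted tissue labelled Neil3-/- and 50.6 RPKM in infarcted wild type, a ratio of 0.813 (0.752 to 0.880), and 36.7 RPKM in non-infarcted tissue labelled Neil3-/- and 39.04 RPKM in non-infarcted wild type, beside exons that overlap Sirt3 on the opposite strand. The lowest ATPase was Psmc5, with 53.9 RPKM in infarcted tissue labelled Neil3-/- and 63.6 RPKM in infarcted wild type, and 50.4 RPKM in non-infarcted tissue labelled Neil3-/- and 52.1 RPKM in non-infarcted wild type. Among the chaperones Psmd10 was highest at 1.20 (0.992 to 1.46) and Psmd9 lowest at 0.828 (0.712 to 0.962). The infarcted library labelled Neil3-/- also held less of the cardiomyocyte markers, all 8 of which were lower than in infarcted wild type and 4 at least 1.5-fold, and more of the 7 fibroblast markers, which summed to 4196 RPKM against 2716 RPKM in infarcted wild type. Their part in the genotype ratios was not tested.

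In non-infarcted tissue the ratios were nearer to 1. Psmc6 was the lowest of the set, with 52.3 RPKM in the library labelled Neil3-/- and 61.6 RPKM in wild type, a ratio of 0.850 (0.787 to 0.919). Psma5 was the highest, with 40.1 RPKM in the library labelled Neil3-/- and 35.8 RPKM in wild type, a ratio of 1.12 (1.01 to 1.249), and Psma7 the lowest of the alpha ring at 0.912 (0.828 to 1.005). Psma7 stood at 80.6 RPKM in infarcted and 62.3 RPKM in non-infarcted tissue labelled Neil3-/-, and at 85.4 RPKM in infarcted and 68.4 RPKM in non-infarcted wild type. Psmb5 and Psmb7 were closest to wild type among the catalytic subunits, at 0.9995 (0.906 to 1.10) for Psmb5 and 0.9996 (0.932 to 1.07) for Psmb7, and Psmb6 was at 0.937 (0.865 to 1.02). In the lid, Psmd8 was highest at 1.10 (1.04 to 1.17) and Psmd14 lowest at 0.879 (0.794 to 0.973). Outside the set, Psmg3 was the only pathway gene past 1.5-fold between genotypes, lower at -0.65 on the log2 scale in the non-infarcted library labelled Neil3-/-, and 0 pathway genes passed in infarcted tissue. The atrial genes Myl4, Myl7 and Sln summed to 28.9 RPKM in the non-infarcted library labelled Neil3-/- and 120 RPKM in non-infarcted wild type. Of the 8 myeloid markers 7 were higher in the non-infarcted library labelled Neil3-/-, 4 of them at least 1.5-fold, and S100a8 was lower by more than that fold, with sums of 654 RPKM in the library labelled Neil3-/- and 394 RPKM in wild type. Of the 7 fibroblast markers 6 were higher there, with sums of 2533 RPKM in the library labelled Neil3-/- and 1950 RPKM in wild type. The part of these markers in the genotype ratios was not tested.

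The difference between both infarct ratios is the same number as the difference between both genotype ratios, since it comes from the same 4 libraries. For 3 of the 35 genes compared the counting intervals of the infarct ratio did not overlap between genotypes, against 16.6% of all genes, a share not matched for reads. These were Psma3 and Psmc6, with the higher infarct ratio in the libraries labelled Neil3-/-, and Psmd11, with the higher one in wild type. On the log2 scale the difference, labelled Neil3-/- minus wild type, was 0.21 for Psma3, 0.21 for Psmc6 and -0.21 for Psmd11. The largest differences in size among the 35 genes, -0.34 for Psmd9 and 0.33 for Psmd5, were within overlapping intervals.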

How the data were processed

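Total RNA of the left ventricle was sequenced on an Illumina instrument in 4 libraries, 1 per group. The authors deposited, per the file headers, uniquely assigned read counts, gene lengths, coverage in percent and RPKM values for each gene with at least 1 read. The deposited RPKM values equal the counts divided by the gene length in the file and the total in its header, apart from a constant. The submitters' processing notes name the build mm9. For the aligner, the counting tool, the annotation and the strand setting, no source used here gives a name. Genes that a file does not list were given 0 reads there.

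From the deposited counts, ratios of RPKM were computed with exact Clopper-Pearson 95% intervals of the read share, which cover counting error only, since reads are not independent molecules. A comparison kept each gene that reached 1 RPKM in either of its libraries, and a gene at least 1.5-fold apart was counted as called. With 1 library per group no test was run and no p-value computed. An additive model of genotype and region would leave 1 residual degree of freedom and was not fitted. Depth was 14.3 M to 18.2 M reads per library. Values in every library are given for the catalytic subunits, for genes of the set past 1.5-fold, for the highest and lowest ratio of each role in each comparison, and for the genes of the rule that are no constitutive subunit. Other pathway genes are given by list counts, with the highest, the lowest and those past 1.5-fold, apart from 1 gene that is not reported here. The members and all lists were chosen with earlier results of these data known. Paaf1 was not found under that symbol. Alternatives were TMM library sizes (edgeR 4.0.16) and median-of-ratios size factors (DESeq2 1.42.0), used for scaling only, with other folds, filters and pseudocounts. Python 3.11.15 with pandas 2.3.3 and scipy 1.17.1 was used. The intervals were tested on simulated Poisson counts, which hold counting error alone, so that check says nothing about spread between animals. Promoters, scanned over the 250 bases before the start, came from a RefSeq table on GRCm38.p6, a build other than that of the files, and no coordinate was converted. Exon overlaps were read from the GENCODE annotation of the mouse, by gene name.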

Additional observations from a re-analysis of the deposited data

Results flagged for a closer look

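Psma3, an alpha ring subunit, had genotype ratios on opposite sides of 1 in the 2 regions, with counting intervals that did not overlap. The ratio, labelled Neil3-/- over wild type, was 1.06 (0.9996 to 1.13) in infarcted tissue and 0.918 (0.848 to 0.993) in non-infarcted tissue, and both kept their side under TMM and median-of-ratios scaling. The difference between both on the log2 scale was 0.21. It was not tested, since each group has 1 library. Intervals that did not overlap between regions were found for 17.3% of all genes compared and for 3 members. Those counts do not ask for ratios on opposite sides of 1, and the share of all genes is not matched for reads.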

How the results depend on the processing

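No paired analysis was possible because no result here comes from a test and the labels carry no replicate numbers. An additive fit of region and genotype was not run, and with 1 library per group no replicate could be left out. The median log2 ratio over the members depended on the scaling in 3 of 4 comparisons. With TMM it was -0.018 for the infarct ratio in the libraries labelled Neil3-/- (0.22 as deposited), 0.041 for that in wild type (0.27 as deposited) and -0.11 for the genotype ratio in infarcted tissue (-0.08 as deposited). With median-of-ratios size factors the same medians were -0.040, 0.033 and -0.12, and centred on the median of all genes, a choice made after seeing the data, -0.058, 0.020 and -0.10. Of the 148 single ratios of members, 34 changed sign with TMM, 39 with median-of-ratios and 38 with centring. The median genotype ratio in non-infarcted tissue stayed between -0.07 and -0.05 under all 8 alternatives run on it.

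Counts of members past the fold in the libraries labelled Neil3-/- were 2 as reported, 0 with TMM, 0 with median-of-ratios, 0 when centred, 0 at 2-fold, 0 among the 26S subunits alone and 11 at a fold 25% above 1. In wild type the infarct count was 0 as reported, 10 at that lower fold and 1 without a filter on low values. Without that filter 1 member also passed between genotypes in infarcted and 1 in non-infarcted tissue. These single members are Psma8 or Psmb11, with at most 22 reads a library, where depth limits any ratio. The share of reads on the 37 members was 0.345% in infarcted and 0.302% in non-infarcted tissue labelled Neil3-/-, and 0.365% in infarcted and 0.310% in non-infarcted wild type. Without ribosomal and small RNA genes these were 0.353%, 0.309%, 0.370% and 0.317%, and for the 26S subunits alone 0.338%, 0.297%, 0.358% and 0.305%, in the same order of libraries.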
